A study of Mus musculus with 7 samples.

Results

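The 10 genes described here encode subunits of the transcription factor AP-1 and other products of the immediate early response, and they were taken by name from a table of counts for 55450 genes in aged mouse skin. They are the Fos family genes *Fos*, *Fosb*, *Fosl1* and *Fosl2*, the Jun family genes *Jun*, *Junb* and *Jund*, and the immediate early genes *Egr1*, *Atf3* and *Ier3*. Each was matched by its Ensembl identifier to a mouse symbol in GENCODE release M21, and all 10 were among the 17959 genes that passed the filter on low counts. Dorsal skin of male wild type C57BL/6 mice aged 24 months was clipped, treated with a depilatory lotion and covered with a dressing, and it received either DMSO alone (4 mice, 480 to 483) or 5 μM ABT-263 in DMSO (3 mice, 476 to 478) for 5 days. ABT-263, or navitoclax, blocks BCL-2 and BCL-xL, which protect cells from apoptosis. The excised skin was homogenized whole, with 1 library of polyadenylated RNA per mouse, so fewer cells of a type and less RNA per cell cannot be told apart. Values are counts scaled to a common library size after TMM normalization (CPM). Differences are the log2 fold change (log2FC) of ABT-263 against DMSO, with its standard error (SE) and the p-value of edgeR's quasi-likelihood test, adjusted over all genes tested and called at 0.05.

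AP-1 is a dimer of a Jun protein with either a Fos protein or another Jun protein, joined by a leucine zipper, and it binds short DNA elements near its target genes. The Fos family proteins cannot pair with themselves, whereas JUN, JUNB and JUND can. Immediate early genes are transcribed within minutes of a growth factor, cytokine, wound or stress signal, because the MAP kinases act on transcription factors that are already in place, and most of their mRNAs are short-lived. In skin, AP-1 is known for its part in keratinocyte differentiation, inflammation and wound repair. The same genes are also raised by the handling of tissue, and the time from excision to lysis is not given in the sources used here.

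Library depth lay between 20344364 and 43562330 counted pairs, and the 3 libraries from treated skin were the deepest. The defining genes of skin were abundant in every mouse, with *Krt14* of basal keratinocytes at 8427 CPM or more, *Krt10* of suprabasal keratinocytes at 2492 CPM or more and *Col1a1* of fibroblasts at 1707 CPM or more. *Acta1* of skeletal muscle was at 8745 CPM or more, so muscle was part of the sampled tissue. ABT-263-treated mouse 476 held the highest value of the 7 mice in 21.0% of all genes tested, mouse 477 in 8.82% and mouse 478 in 16.6%. Among the 3 treated mice, mouse 476 was the highest in 33.6% of all genes tested. DMSO-treated mouse 481 held 2352 CPM of hair follicle genes in sum, against 10.2 to 11.5 CPM in the other DMSO-treated mice. In treated mice 476, 477 and 478 this sum was 31.1, 8.04 and 496 CPM. The neutrophil markers summed to 100.1 to 1822 CPM after DMSO and to 5098 to 8363 CPM after ABT-263, highest in mouse 476. All 6 of these markers were detected in every mouse. With all mice 3 were called higher (12.4% of all genes tested), and without mouse 476 it was 1 (6.01%).

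The sequences just upstream of *Fos*, *Jun* and *Fosb* are shown as examples of windows with and without the motifs searched, and they were chosen with the values of these genes known. Each run is the 250 bases before the RefSeq start on GRCm38.p6, read 5′ to 3′ on the gene's strand, from chr12:85473640-85473889 on the plus strand for *Fos*, chr4:95052223-95052472 on the minus strand for *Jun* and chr7:19310046-19310295 on the minus strand for *Fosb*. Capitals mark matches to the motifs searched.
Fos: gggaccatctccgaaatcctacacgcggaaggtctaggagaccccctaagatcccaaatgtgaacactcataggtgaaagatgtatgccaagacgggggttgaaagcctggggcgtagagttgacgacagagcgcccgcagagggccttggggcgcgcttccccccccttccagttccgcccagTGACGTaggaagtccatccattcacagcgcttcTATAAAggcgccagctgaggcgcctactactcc
Jun: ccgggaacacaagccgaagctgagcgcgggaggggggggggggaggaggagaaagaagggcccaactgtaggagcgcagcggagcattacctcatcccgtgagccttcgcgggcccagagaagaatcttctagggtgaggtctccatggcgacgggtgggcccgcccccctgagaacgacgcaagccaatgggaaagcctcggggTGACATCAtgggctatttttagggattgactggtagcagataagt
Fosb: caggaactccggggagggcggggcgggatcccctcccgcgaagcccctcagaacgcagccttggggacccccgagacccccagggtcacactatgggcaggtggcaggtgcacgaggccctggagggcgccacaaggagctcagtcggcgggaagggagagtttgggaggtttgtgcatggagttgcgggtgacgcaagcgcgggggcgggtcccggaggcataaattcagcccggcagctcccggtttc
The search covered TGACGT, the core of the cyclic AMP response element, TGACTCA, the classical AP-1 element, TGACATCA, the variant first described in the *Jun* promoter, and the CArG box bound by serum response factor, each on both strands, and TATAAA on the gene's strand. *Fos* held TGACGT at 66 to 61 bases before its start and TATAAA at 33 to 28 bases. No CArG box was found in the 250 bases of *Fos*, and bases farther upstream were not searched for any gene. *Jun* held TGACATCA at 45 to 38 bases before its start. *Atf3*, which was not called, held TGACGT on the other strand at 8 to 3 bases. None of the 5 motifs was found in the windows of *Fosb*, *Fosl2*, *Junb*, *Jund* and *Ier3*, of which *Jund* was called. Across all 32851 windows of this length, TGACGT was present in 6.47%, TGACTCA in 4.46%, TGACATCA in 2.93%, TATAAA in 7.59% and the CArG box in 1.47%. RefSeq windows were given for 8 of the 10 genes, and those of *Jund*, *Fosl2* and *Atf3* belong to starts 1210, 671 and 34706 bases away from the outermost GENCODE start.

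*Fos*, *Jun* and *Egr1* rose after ABT-263 and *Jund* fell, and the other 6 genes were not called. The count of 4 in 10 stands beside 24.2% of all genes tested, where 12.4% of all genes were called higher and 11.7% lower. The median log2FC of the 10 genes was 0.72, against 0.0022 over all genes tested, and without mouse 476 it was 0.42, against 0.0086. The groups did not overlap for the same 4 genes, as for 37.1% of all genes tested, with 3 of the 10 genes higher in every treated mouse (18.7% of all genes) and 1 lower (18.4%). Mouse 476 had the highest value of the 7 mice for 8 of the 10 genes, all but *Fosb* and *Jund*. Without this mouse *Fos* and *Jun* were called and *Egr1* and *Jund* were not, beside 12.0% of all genes tested. The same 2 genes were left without mouse 482 (10.3% of all genes) or 483 (11.7%), and *Fos*, *Jun* and *Ier3* without mouse 478 (9.39%). All 4 were called without mouse 480 (23.5%), 481 (16.1%) or 477 (21.6%). They were also called by DESeq2 (26.8%), with its size factors (23.6%) or library totals (23.3%) in edgeR, with every gene of at least 1 count (11.1%), with at least 10 counts in every mouse (26.1%), with thinned counts (23.5%) and by limma (23.4%).

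**Figure D1:**
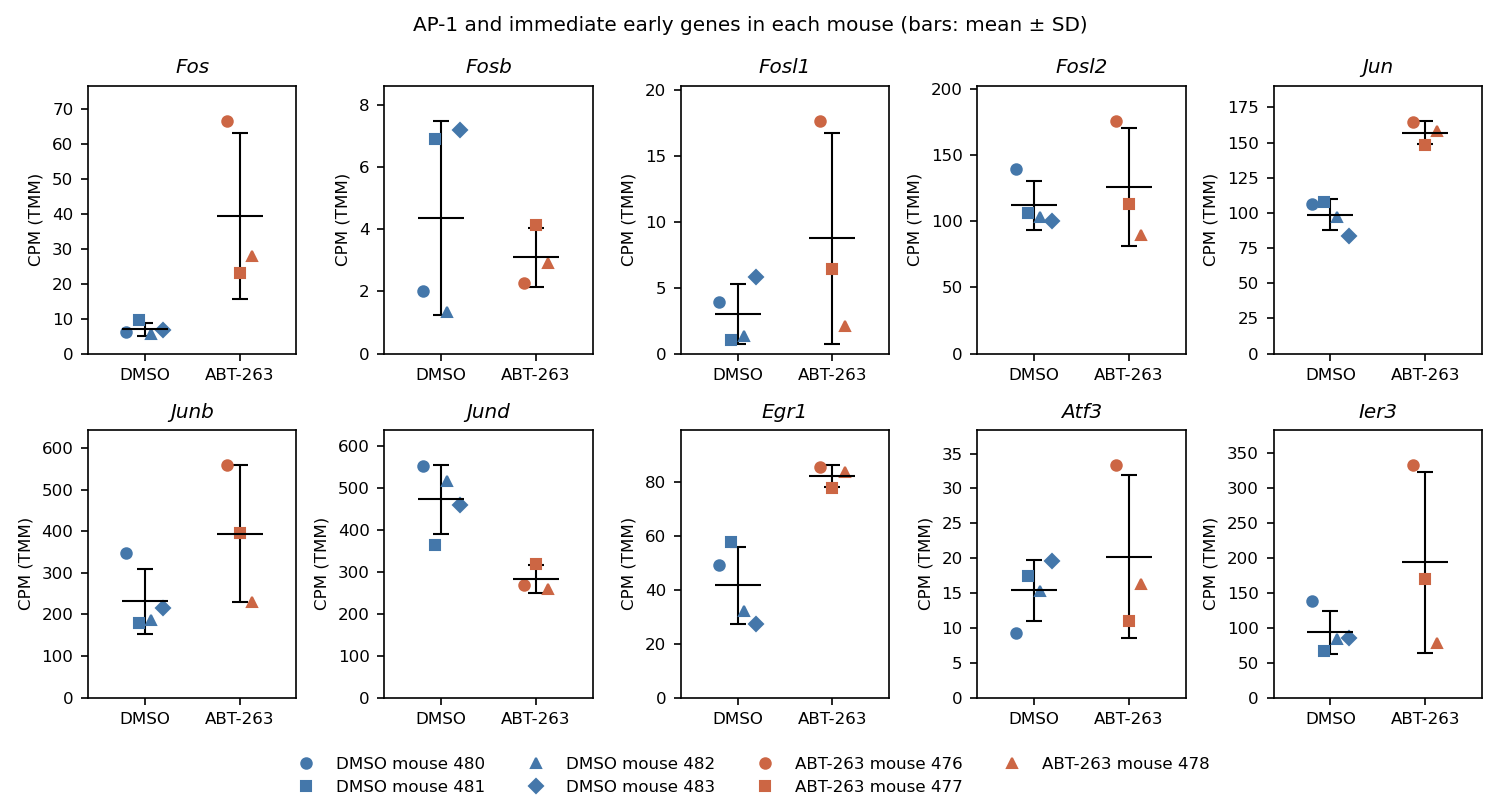
Expression of the 10 genes in each mouse, in CPM after TMM normalization on a linear axis from 0, with the mean and SD of the 4 DMSO-treated mice (blue) and the 3 ABT-263-treated mice (orange). The groups are apart for *Fos*, *Jun*, *Egr1* and *Jund*, and mouse 476 (orange circle) is far above the other treated mice for *Fos*, *Fosl1*, *Fosl2*, *Atf3* and *Ier3*.

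*Fos* (ENSMUSG00000021250, chromosome 12 from 85473890 to 85477273, GRCm38) encodes the founding Fos protein and showed the largest change of the 10 genes. It was at 6.06, 9.69, 5.54 and 6.74 CPM in DMSO-treated mice 480, 481, 482 and 483, and at 66.7, 23.2 and 28.1 CPM in ABT-263-treated mice 476, 477 and 478. The lowest treated mouse was thus above the highest control, and mouse 476 was well above the others. Control mice averaged 7.01 ± 1.86 CPM (SD, n = 4) and treated mice 39.3 ± 23.8 CPM (SD, n = 3), with log2FC 2.49 (SE 0.39, edgeR adjusted p = 0.00807). The rise was 5.60-fold with all mice and 3.68-fold without mouse 476 (edgeR adjusted p = 0.0151). With each mouse left out in turn, *Fos* was called in 7 of 7 fits. The counts behind these values were 108 to 230 read pairs per mouse after DMSO and 921 to 1866 after ABT-263.

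*Fosb*, a gene usually induced together with *Fos*, was not called. It was at 2.01, 6.91, 1.33 and 7.19 CPM in mice 480 to 483 and at 2.25, 4.13 and 2.90 CPM in mice 476 to 478. The treated mice lay inside the range of the controls, which fell into a lower and a higher pair. The log2FC of *Fosb* was -0.49 (SE 0.60, edgeR adjusted p = 0.573) and stayed between -0.79 and -0.15 with each mouse left out. Per kilobase of merged exons, *Fos* was 2.49 to 11.0 times as abundant as *Fosb* in the controls and 14.9 to 78.6 times in the treated mice. These ratios depend on the length used, since *Fosb* has 6243 bases of merged exons and 3782 in the transcript with the longest coding sequence. *Fosb* rested on 26 to 175 read pairs per mouse.

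*Fosl1*, which encodes FRA-1, a Fos protein known from migrating keratinocytes at wound edges, varied most within each group. It was at 3.93, 1.01, 1.33 and 5.83 CPM in mice 480 to 483 and at 17.7, 6.45 and 2.08 CPM in mice 476 to 478. Mouse 478 fell among the controls, and the values differed 8.48-fold within the treated group. The log2FC of 1.52 (SE 0.80) was not called (edgeR adjusted p = 0.199) and was 0.49 without mouse 476. Of the exon bases of *Fosl1*, 57.2% overlap *Ccdc85b* on the other strand, which was at 131 to 147 CPM in the controls and 65.4 to 85.6 CPM in the treated mice. The authors counted reads on the same strand, and the part of the overlap in the *Fosl1* values was not tested.

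*Fosl2*, which encodes FRA-2, was the most abundant Fos family gene by CPM in every mouse and showed no called change. Per kilobase of merged exons, *Fosl2* was below *Fos* in treated mice 476 and 478. It was at 139.7, 106, 103 and 99.9 CPM in mice 480 to 483 and at 176, 113 and 89.6 CPM in mice 476 to 478. Both groups covered much the same range, with the extremes in mice 476 and 478. Its log2FC was 0.17 (SE 0.24, edgeR adjusted p = 0.631) and turned to -0.14 without mouse 476.

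*Jun* (ENSMUSG00000052684, chromosome 4 from 95049034 to 95052222) encodes c-JUN, the partner with which FOS forms the classical AP-1 dimer. It was at 106, 108, 97.0 and 83.5 CPM in mice 480 to 483 and at 165, 148 and 158 CPM in mice 476 to 478. Both groups were tight, with the controls differing 1.29-fold and the treated mice 1.11-fold among themselves. Control mice averaged 98.7 ± 11.2 CPM (SD, n = 4) and treated mice 157 ± 8.34 CPM (SD, n = 3), with log2FC 0.67 (SE 0.13, edgeR adjusted p = 0.0132). The rise was called in 7 of 7 fits with a mouse left out, with log2FC values of 0.60 to 0.74, and it was 0.64 without mouse 476. *Junos*, an antisense gene over 7.30% of the *Jun* exon bases, was at 1.35 to 2.59 CPM in all mice.

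*Junb* encodes a Jun protein that can restrain c-JUN and is itself quickly induced. It was at 347, 180, 186 and 216 CPM in mice 480 to 483 and at 558, 396 and 229 CPM in mice 476 to 478. Mouse 478 lay below DMSO-treated mouse 480, so the groups overlapped. The log2FC of 0.77 (SE 0.34) was not called (edgeR adjusted p = 0.129), was 0.44 without mouse 476, and was not called in any of the 7 fits with a mouse left out. *Prdx2*, which overlaps 7.50% of its exon bases on the other strand, moved the other way, from 419 to 519 CPM in the controls to 276 to 349 CPM in the treated mice.

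*Jund* (ENSMUSG00000071076, chromosome 8 from 70698949 to 70700616) encodes the Jun protein that is present in resting cells and is little induced by growth signals. It was at 552, 365, 518 and 459.7 CPM in mice 480 to 483 and at 269.8, 320.4 and 259 CPM in mice 476 to 478. Every treated mouse was below every control, and no treated mouse stood apart. Control mice averaged 474 ± 82.0 CPM (SD, n = 4) and treated mice 283 ± 32.9 CPM (SD, n = 3), with log2FC -0.74 (SE 0.19, edgeR adjusted p = 0.0268). The call was lost without mouse 482, 483, 476 or 478, with log2FC values of -0.70, -0.76, -0.70 and -0.68 and adjusted p-values of up to 0.0899 from edgeR. The antisense gene *Gm11175*, which overlaps 52.6% of the exon bases, was at 0.565 to 1.31 CPM in the controls and, with no overlap, at 1.43 to 2.62 CPM in the treated mice (log2FC 1.08, edgeR adjusted p = 0.0765), and its part in the *Jund* values was not tested.

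The make-up of Fos and Jun family RNA was compared per kilobase of merged exons, as the share of each gene in the sum over the 7 genes, as a description with no test. *Jund* made up 62.0% to 71.3% of the sum in the DMSO-treated mice and 31.6% to 47.4% in the ABT-263-treated mice. *Junb* held 18.5% to 28.2% and 30.4% to 47.4%, and *Jun* 6.23% to 9.73% and 10.1% to 15.2%. The share of *Fos* was 0.482% to 1.19% after DMSO and 2.26% to 5.54% after ABT-263. The shares of these 4 genes did not overlap between groups on this scale. Shares within a mouse are linked, since a smaller share of *Jund* raises those of the other genes. In CPM, *Junb* overlapped between the groups and was not called. As shares of plain counts, *Junb* (20.3% to 30.0% and 29.8% to 44.5%) and *Jun* (9.18% to 13.9% and 13.1% to 20.6%) overlapped, and *Jund* and *Fos* did not. The ratio of *Junb* to *Jund* was 0.260 to 0.455 in the controls, 0.897 in mouse 477 and 0.642 in mouse 478. On this scale, mouse 476 was the single mouse with more *Junb* (243 CPM per kb) than *Jund* (162 CPM per kb). By plain counts mouse 477 also had more *Junb* (15719 read pairs) than *Jund* (12710 read pairs), as did mouse 476. *Fosl2* stayed between 2.44% and 3.55% in all mice, and *Fosl1* and *Fosb* were each below the share of *Fosl2* in every mouse.

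**Figure D2:**
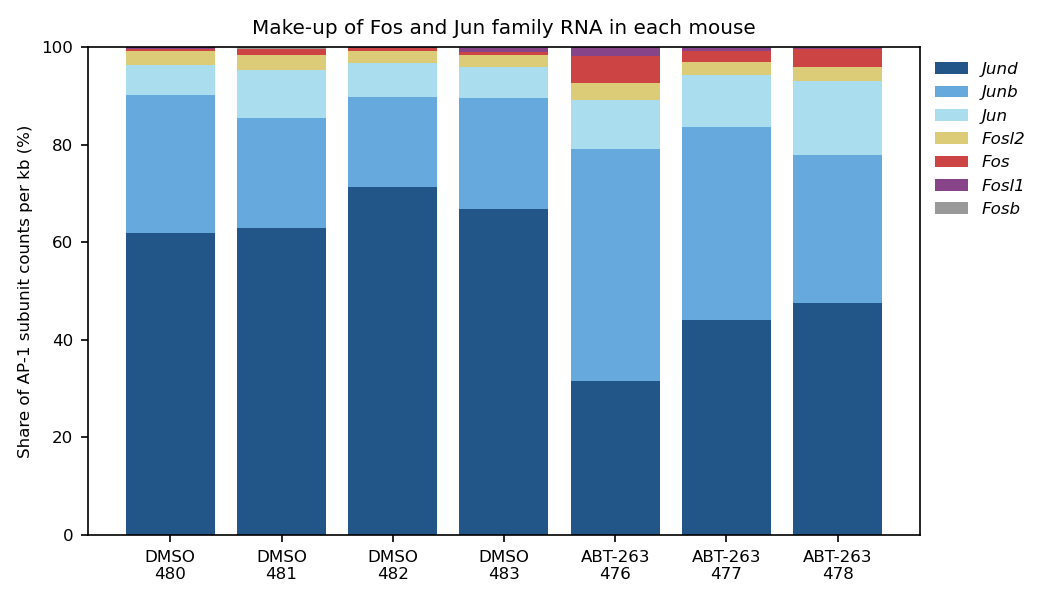
Share of each Fos and Jun family gene in their summed counts per kilobase of merged exons, in percent, 1 bar per mouse. *Jund* (dark blue) makes up 62.0% or more in each DMSO-treated mouse and 47.4% or less in each ABT-263-treated mouse, and *Fos* (red) widens from at most 1.19% to at least 2.26%.

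*Egr1* (ENSMUSG00000038418, chromosome 18 from 34859823 to 34864984) encodes a zinc finger factor that is switched on by the same MAP kinase route as *Fos*. It was at 49.1, 57.9, 32.2 and 27.5 CPM in mice 480 to 483 and at 85.6, 77.8 and 83.7 CPM in mice 476 to 478. The treated mice lay close together and above all controls, which spread 2.11-fold. Control mice averaged 41.7 ± 14.3 CPM (SD, n = 4) and treated mice 82.4 ± 4.09 CPM (SD, n = 3), with log2FC 0.98 (SE 0.25, edgeR adjusted p = 0.0280). The size stayed between 0.82 and 1.18 with each mouse left out, but the call was lost without mouse 482, 483, 476 or 478, with log2FC values of 0.87, 0.82, 0.96 and 0.98 and adjusted p-values of up to 0.0772 from edgeR.

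*Atf3*, a stress-induced factor that pairs with Jun proteins, was at 9.29, 17.4, 15.2 and 19.6 CPM in mice 480 to 483 and at 33.4, 10.9 and 16.3 CPM in mice 476 to 478. The groups overlapped, and the highest value belonged to mouse 476. Its log2FC was 0.39 (SE 0.39, edgeR adjusted p = 0.493) and turned to -0.16 without mouse 476. *Ier3*, a small early response protein without a DNA-binding domain that acts on cell survival, was at 138, 66.7, 83.6 and 85.5 CPM in mice 480 to 483 and at 333, 169 and 78.4 CPM in mice 476 to 478. Mouse 478 fell among the controls while the other treated mice were above them. The log2FC of 1.05 (SE 0.46) was not called (edgeR adjusted p = 0.128). It was 1.43 and called without mouse 478 (edgeR adjusted p = 0.0494) and 0.41 without mouse 476 (adjusted p = 0.497).

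**Figure D3:**
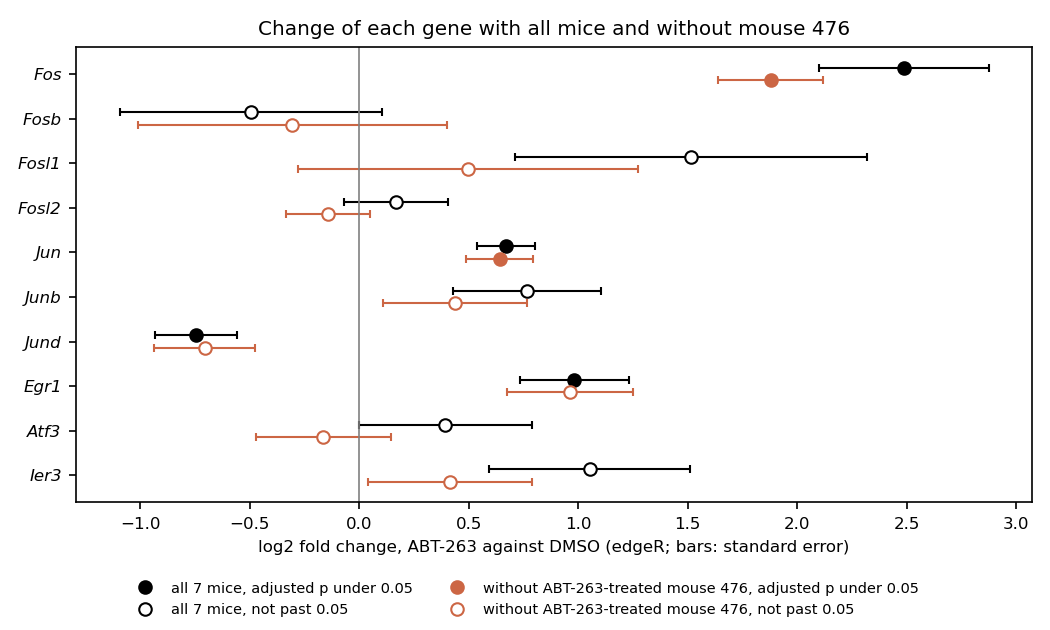
Log2 fold change of each gene, ABT-263 against DMSO, with its standard error from edgeR, for all 7 mice (black) and without ABT-263-treated mouse 476 (orange), where filled points have an adjusted p-value under 0.05. *Fos*, *Jun*, *Jund* and *Egr1* are filled with all mice, *Fos* and *Jun* without mouse 476, and *Fosl2* and *Atf3* cross 0.

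The 10 genes thus fell into different patterns over the treated mice. *Jun*, *Egr1* and *Jund* differed at most 1.24-fold among the 3 treated mice. *Fosl1*, *Junb*, *Ier3* and *Fosl2* were highest in mouse 476, intermediate in mouse 477 and lowest in mouse 478. They differed 8.48-fold, 2.44-fold, 4.25-fold and 1.96-fold. *Fos* and *Atf3* were highest in mouse 476 and lowest in mouse 477, and they differed 2.87-fold and 3.05-fold. *Fosb* was highest in mouse 477 and lowest in mouse 476, and it differed 1.8-fold. The summed neutrophil markers were 8363, 5098 and 5564 CPM in mice 476, 477 and 478. *Retnlg*, 1 of these 6 markers, was at 232, 2.09 and 3.03 CPM. The sums in mice 477 and 478 thus rested on other markers of the list, and which cells expressed those was not tested. The summed macrophage markers were 651, 305 and 398 CPM, against 89.6 to 217 CPM after DMSO, with 4 of 4 called higher with all mice and 1 without mouse 476. Endothelial markers were called higher in 4 of 4 genes (3 without mouse 476) and fibroblast markers in 3 of 5 (3 without mouse 476). Of all genes tested, 12.4% were called higher with all mice and 6.01% without mouse 476. Of 4 skeletal muscle markers, *Tnnt3* was called lower (log2FC -1.16, edgeR adjusted p = 0.0319), beside 11.7% of all genes. Without mouse 476, 0 were called, beside 5.99% of all genes called lower. The part of these cells in the values of the 10 genes was not tested. In the controls, the markers of wound-activated keratinocytes summed to 18950 CPM in mouse 480 and to 2529 to 5115 CPM in the others. Mouse 480 was also the highest control for the summed basal (30734 CPM) and suprabasal (37442 CPM) markers. It was the highest control for *Fosl2*, *Junb*, *Jund* and *Ier3*, but not for *Fos*, *Fosb*, *Fosl1*, *Jun*, *Egr1* or *Atf3*, and the lowest for *Atf3*. In treated mice 476, 477 and 478 the wound-activated markers summed to 9345, 21747.5 and 10182 CPM.

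Per kilobase of merged exons, which allows levels of different genes to be set side by side, the order after DMSO was *Jund* (284 ± 49.2 CPM per kb, SD, n = 4), *Junb* (101 ± 34.0), *Ier3* (82.6 ± 27.2), *Jun* (30.9 ± 3.51), *Fosl2* (11.6 ± 1.92), *Egr1* (9.29 ± 3.18), *Atf3* (7.14 ± 2.05), *Fos* (2.98 ± 0.789), *Fosl1* (1.49 ± 1.122) and *Fosb* (0.698 ± 0.500). The values of *Junb* and *Ier3* overlapped between mice, as did those of *Fosl2* and *Egr1*, *Egr1* and *Atf3*, *Fos* and *Fosl1*, and *Fosl1* and *Fosb*. After ABT-263, *Junb* (171 ± 71.6, SD, n = 3), *Ier3* (171 ± 114) and *Jund* (169.6 ± 19.7) were at the top with overlapping values, followed by *Jun* (49.2 ± 2.61), *Egr1* (18.4 ± 0.911) and *Fos* (16.7 ± 10.1). *Fos* moved from the eighth to the sixth place, ahead of *Fosl2* (13.0 ± 4.61) and *Atf3* (9.38 ± 5.43), although its values overlapped with those of both. The order of *Fos* and *Fosl2* after ABT-263 depends on the length used. Merged exons and the transcript with the longest coding sequence have 2352 and 2108 bases for *Fos*, and 9680 and 6537 bases for *Fosl2*.

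Gene structure and the ends of the mRNAs were compared as features that played no part in the choice of the genes. *Jun*, *Junb* and *Jund* each had a single exon in the transcript with the longest coding sequence, which holds for 4.88% of the 20690 coding genes with a 3′ untranslated region. *Egr1* and *Ier3* had 2 exons, and *Atf3* and the Fos family genes had 4, against a median of 7. The pentamer ATTTA, the core of the AU-rich elements that shorten the life of many early response mRNAs, occurred 5 times in the 613 bases of the *Ier3* 3′ untranslated region, 4 times in the 815 bases of *Fos* and 4 times in the 1233 bases of *Jun*. *Fosl2* had 8 in 4653 bases, *Atf3* 3, *Egr1* and *Junb* 2 each, and *Fosl1*, *Fosb* and *Jund* 1 each. The median over coding genes was 1, and 24.9% had 4 or more. *Fosb*, with 1 pentamer in 2145 bases, had the lowest density of the 10 genes (0.466 per kilobase) and *Ier3* the highest (8.16 per kilobase).

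Other immediate early genes rose in part. Of 36 listed genes, 34 were tested, 12 were higher after ABT-263 and 0 lower by edgeR (0 lower at an unadjusted p under 0.05, 1 lower by DESeq2), where 12.4% of all genes tested were called higher. The median log2FC was 0.56. *Dusp1*, a phosphatase that switches MAP kinases off, was at 30.3, 44.2, 42.7 and 33.9 CPM in mice 480 to 483 and at 108.6, 68.2 and 67.2 CPM in mice 476 to 478, log2FC 1.11 (SE 0.21, edgeR adjusted p = 0.0127). *Ier5*, another early response gene, rose by 0.95 (adjusted p = 0.0124), *Nfkbiz*, a nuclear regulator of NF-κB, by 1.82 (adjusted p = 0.00746) and *Myc*, the growth regulator, by 0.62 (adjusted p = 0.0162) on the log2 scale in the edgeR fit. *Socs3*, the feedback inhibitor of STAT3 signaling, had log2FC 2.83 (adjusted p = 0.0333) and lost the call without mouse 476, where it stood at 329 CPM (log2FC 1.33, edgeR adjusted p = 0.0779).

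Several genes that usually accompany *Fos* were not called. *Nr4a1*, a nuclear receptor induced early by many signals, was at 22.8, 40.8, 43.7 and 84.7 CPM in mice 480 to 483 and at 40.2, 38.4 and 31.8 CPM in mice 476 to 478 (log2FC -0.38, edgeR adjusted p = 0.497). *Egr2* and *Egr3*, relatives of *Egr1*, had log2FC values of 0.37 and 0.18, *Ier2* one of 0.28 and *Btg2*, an antiproliferative early gene, one of 0.34. *Zfp36*, whose product destroys mRNAs with AU-rich elements, had log2FC 1.00 (edgeR adjusted p = 0.0913) with mouse 476 at 190.2 CPM and mouse 478 at 57.9 CPM, inside the control range. In 22 of the 34 genes the highest of the 7 mice was mouse 476. Without it, 5 of the 34 were called higher, *Ier5*, *Dusp1*, *Myc*, *Nfkbiz* and *Tnfaip3*, where 6.01% of all genes tested were (*Tnfaip3* was named after its values were seen). The count called higher was also lower without mouse 480 (7, beside 11.6% of all genes) or 481 (7, beside 7.95%). It was 3 without mouse 482 (4.80%) and 5 without mouse 483 (5.58%). Without mouse 477 it was 10 (12.3%), and without mouse 478 it was 9 (5.22%).

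**Figure D4:**
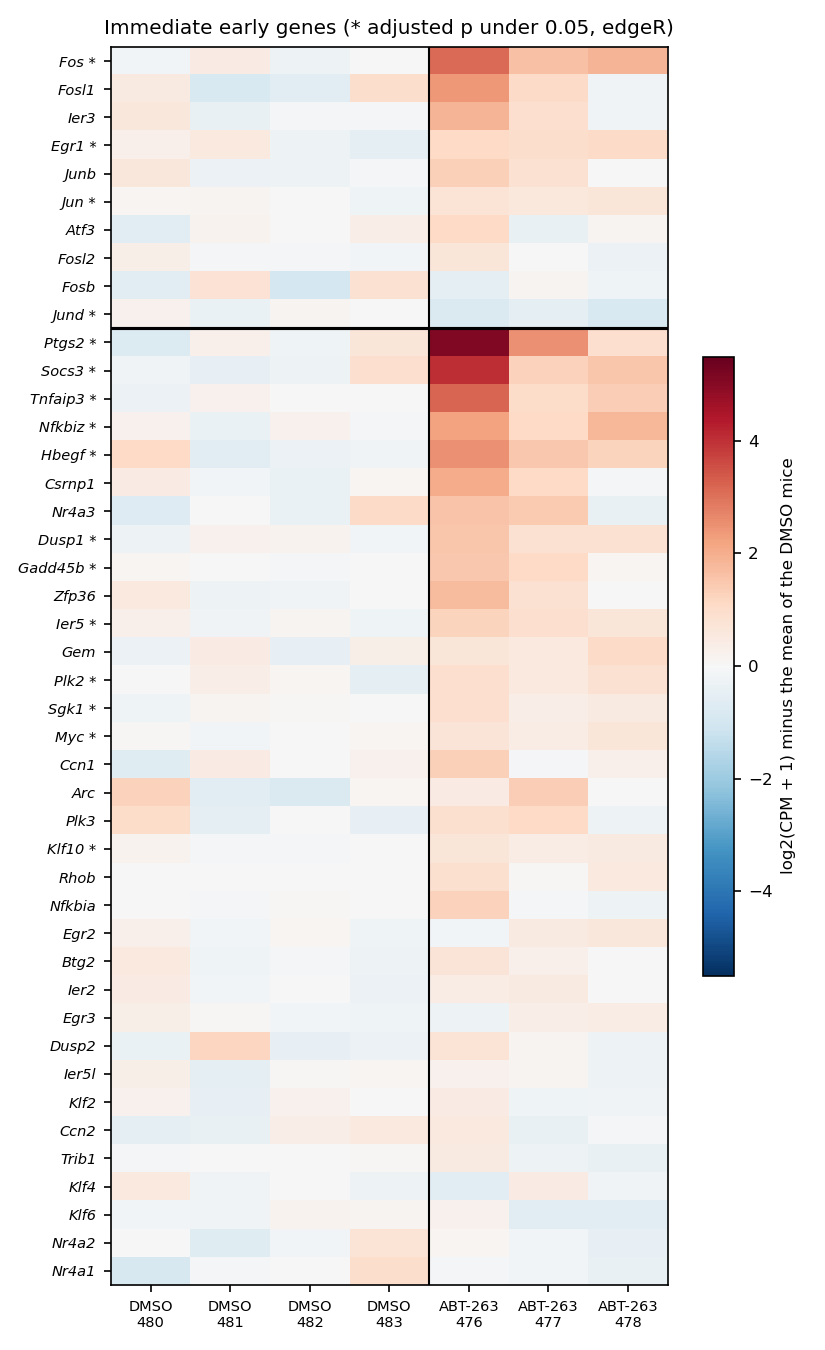
Difference of log2(CPM + 1) from the mean of the 4 DMSO-treated mice for the 10 genes (above the line) and 34 other immediate early genes (below), 1 column per mouse, with asterisks at genes called by edgeR. Mouse 476 has the strongest red for most genes, and *Jund*, *Fosb* and *Nr4a1* are not raised in any treated mouse by comparison with the highest control.

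Heat shock genes, which respond to protein damage and are often raised together with *Fos* and *Jun* when tissue is handled, were mostly not called. Of 12 tested, edgeR called 0 higher and 3 lower, beside 12.4% and 11.7% of all genes tested. DESeq2 called 0 higher and 4 lower. At an unadjusted p under 0.05 in edgeR, 1 was higher, *Dnajb1*, and 5 were lower. Every treated mouse was below every control for 5 of the 12 (18.4% of all genes) and above for 1 (18.7%). The 12 genes summed to 4034 to 4338 CPM after DMSO and to 2755 to 3258 CPM after ABT-263, with *Hsp90ab1* the largest part. With library totals in place of TMM, edgeR called 1 higher, again *Dnajb1*, and 3 lower (14.7% and 8.53% of all genes). *Dnajb1*, a co-chaperone of HSP70, was named after its values were seen. The median log2FC was -0.12. The number called lower was 0 without mouse 482 or 478 and 1 without mouse 483 or 476. *Hspb1* had log2FC -0.63 (edgeR adjusted p = 0.0188), and *Hsp90aa1* one of -1.03 (adjusted p = 0.0213). The inducible *Hspa1a* was at 37.7, 34.5, 40.6 and 37.3 CPM in mice 480 to 483 and at 21.6, 28.1 and 27.0 CPM in mice 476 to 478 (log2FC -0.55, edgeR adjusted p = 0.0243). Its near-identical neighbour *Hspa1b* had log2FC -0.08 (adjusted p = 0.794), and the split of reads between the pair is uncertain. Mouse 476 was the lowest of the 7 mice for *Hspa1a* and *Hspa1b*, and the highest for *Hspa8* at 339 CPM. The part of tissue handling in any of these values was not tested.

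Among the other basic leucine zipper genes of the AP-1 superfamily, 3 of 11 were higher and 2 lower, beside 12.4% and 11.7% of all genes tested. *Jdp2*, which encodes a repressor that pairs with Jun proteins, was at 4.50, 4.47, 5.39 and 5.34 CPM in mice 480 to 483 and at 22.6, 12.0 and 11.0 CPM in mice 476 to 478, log2FC 1.62 (SE 0.27, edgeR adjusted p = 0.00869). It was also called without mouse 476 (edgeR adjusted p = 0.0172). *Atf2* rose by 0.62 (adjusted p = 0.0302) and *Maff*, a small MAF protein, by 1.21 (adjusted p = 0.0373), whereas *Maf* and *Mafg* had log2FC values of -0.70 (adjusted p = 0.0289) and -0.46 (adjusted p = 0.0458) in the same edgeR fit. *Batf*, a partner of Jun proteins in leukocytes, was not called (log2FC 1.70, edgeR adjusted p = 0.0704). Without mouse 476, *Atf2* (adjusted p = 0.0800) and *Maff* (edgeR adjusted p = 0.116) lost the call, and 1 gene was higher and 2 lower, beside 12.0% of all genes called. The number called was 3 without mouse 481 (16.1% of all genes) or 477 (21.6%), 2 without mouse 478 (9.39%), and 1 without mouse 482 (10.3%) or 483 (11.7%).

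Of 17 kinases and transcription factors upstream, 2 were higher and 2 lower, near the shares of all genes tested called higher (12.4%) and lower (11.7%), and the median log2FC was 0.11. *Map2k1*, which encodes the kinase MEK1 that activates ERK, was at 23.6, 25.2, 20.8 and 29.1 CPM in mice 480 to 483 and at 72.9, 51.1 and 69.0 CPM in mice 476 to 478, log2FC 1.38 (SE 0.17, edgeR adjusted p = 0.00602). *Mapk14*, which encodes the stress kinase p38α, rose by 0.69 (adjusted p = 0.0120). *Map2k7*, an activator of JNK, had log2FC -0.73 (adjusted p = 0.0109), and *Elk4*, a partner of serum response factor, one of -0.64 (adjusted p = 0.0349, and 0.0890 without mouse 476), while *Srf* itself was not called (-0.35, edgeR adjusted p = 0.149). Another gene on the same strand covers 35.2% of *Map2k7* exon bases, which leaves its count uncertain. Of 11 feedback inhibitors, *Dusp4* (1.10, adjusted p = 0.0268) and *Spred1* (0.77, adjusted p = 0.0297) were higher, and *Dusp8*, a phosphatase for JNK and p38, was lower (-1.34, edgeR adjusted p = 0.0107), beside 12.4% and 11.7% of all genes tested. The ERK phosphatase *Dusp6* (0.47) and *Spry4* (0.68) were not called. *Dusp4* rested on 1.18 to 3.97 CPM, and without mouse 476 its adjusted p was 0.0503 and that of *Spred1* 0.0833 from edgeR. A single inhibitor was called without mouse 476 (12.0% of all genes), 482 (10.3%), 483 (11.7%) or 478 (9.39%).

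Among known target genes of AP-1, 7 of 16 were higher (12.4% of all genes tested) and 0 lower by edgeR (1 lower at an unadjusted p under 0.05, and 0 by DESeq2 among the 10 with an adjusted p), and the median log2FC was 2.21. *Mmp9*, a gelatinase, was at 10.5, 12.9, 7.90 and 10.8 CPM in mice 480 to 483 and at 316, 39.3 and 35.7 CPM in mice 476 to 478 (log2FC 3.63, SE 0.79, edgeR adjusted p = 0.0194). *Mmp13*, a collagenase, was at 378 CPM in mouse 476, 16.7 and 29.2 CPM in mice 477 and 478, and at most 5.86 CPM in the controls. *Plau*, the urokinase gene, was at 34.8 to 53.1 CPM after DMSO and 64.6 to 85.7 CPM after ABT-263 (log2FC 0.81, edgeR adjusted p = 0.0171). *Vegfa*, the angiogenic growth factor, rose by 1.34 (adjusted p = 0.0173) on the log2 scale. *Plaur*, the urokinase receptor, had log2FC 3.11 (adjusted p = 0.0375), which was 1.25 without mouse 476 (edgeR adjusted p = 0.0731). Without mouse 476 the median of the list was 0.81 and 4 genes were called, *Mmp9*, *Mmp13*, *Plau* and *Vegfa*. All 4 were higher, beside 6.01% of all genes called higher in that fit. *Mmp9* and *Mmp13* are also expressed by infiltrating leukocytes, whose markers were highest in the same mouse, and their part in these values was not tested. The number called higher was 4 without mouse 481 (7.95% of all genes), 1 without mouse 482 (4.80%) and 2 without mouse 483 (5.58%). It was 7 without mouse 480 (11.6%) or 478 (5.22%) and 5 without mouse 477 (12.3%).

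**Figure D5:**
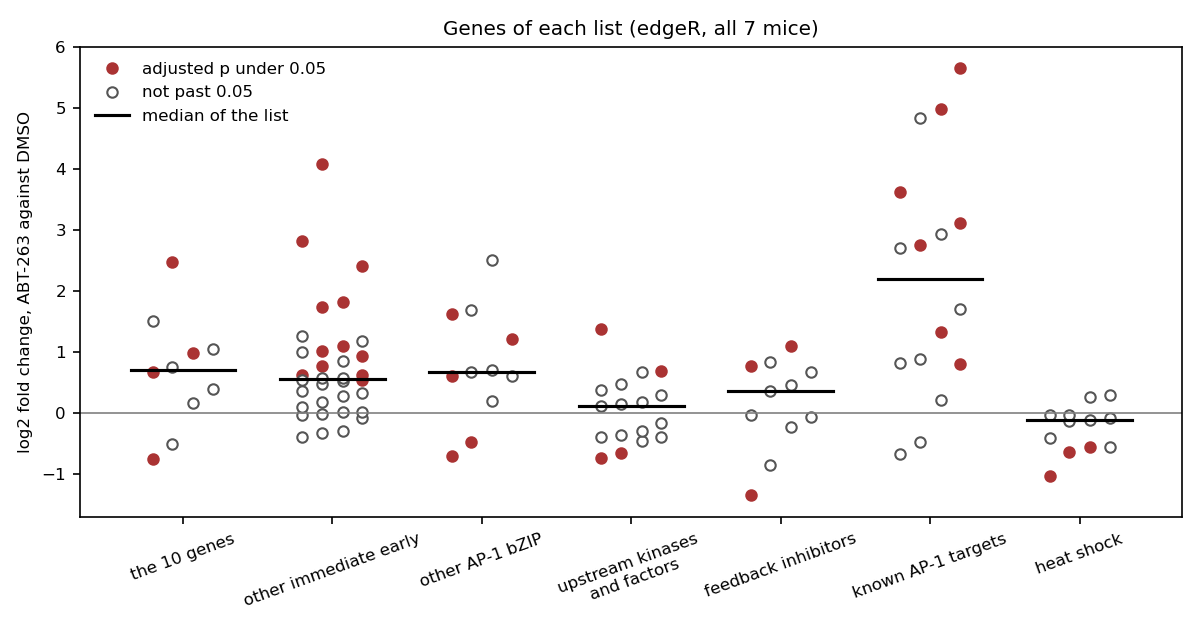
Log2 fold change of every tested gene of each list from the edgeR fit of all 7 mice, with called genes filled and the list's median as a bar. The medians run from -0.12 for heat shock genes to 2.21 for known AP-1 targets, with 0.72 for the 10 genes (0.42 without mouse 476).

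The genes with the profile most like that of *Fos* over the 7 mice were *Lama3*, *Serpinb2* and *Csf2ra*, measured as the root mean square difference of centred log2 CPM (0.17, 0.19 and 0.30). *Lama3*, a chain of laminin-332 in the epidermal basement membrane, was at 5.34 to 8.64 CPM after DMSO and at 61.4, 27.3 and 29.9 CPM in mice 476, 477 and 478. *Serpinb2*, the inhibitor of plasminogen activators, was at 179.9, 45.5 and 66.7 CPM in the same treated mice and at most 17.2 CPM in the controls. The genes most like *Junb* were *Tmem51*, *Zfp36* and *Gimap5* (0.14, 0.15 and 0.15), and those most like *Fosl1* were *Timp1*, *Adamts4* and *Ptprn* (0.42, 0.49 and 0.50), so the nearest profiles to *Fosl1* were farther away. The likeness was taken over 17959 genes and 7 mice and is a description.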

How the data were processed

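Skin RNA of 7 mice was sequenced. Per the labels and the study's methods, the authors aligned reads to mm10 with STAR 2.7.9a, counted uniquely aligned proper pairs on the same strand per Ensembl gene with featureCounts (Subread 1.6.2), left out mitochondrial genes and deposited the counts without normalization or filter. The labels and the methods name different RNA extraction kits. The authors also deposited log2-like variance-stabilized values made with DESeq2, used here as an alternative only. Symbols and gene models came from GENCODE M21 (GRCm38), which held 55190 of 55450 identifiers, and promoter sequences from RefSeq on GRCm38.p6. The study's methods name a later Ensembl annotation.

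Counts were normalized (TMM), filtered (filterByExpr) and tested with the robust quasi-likelihood test of edgeR 4.0.16 in R 4.3.3, two-sided, with Benjamini-Hochberg adjustment over 17959 genes and a threshold of 0.05. Standard errors are the log2 fold change divided by the square root of F. Log2 CPM for likeness used a prior count of 2. The fit was tested on simulated data. Alternatives were DESeq2 1.42.0, its size factors, library totals, other filters, thinned counts, limma 3.58.1 on the variance-stabilized values, and leaving out each mouse. The labels name no batch. The 10 genes and all lists were chosen with earlier results of these data known. Named genes are the 10, fixed members of the lists, the 3 called genes per list and direction with the smallest p, and the 3 profiles most like *Fos*, *Fosl1* and *Junb*. Each library is 1 mouse, so the spread between libraries holds biological and technical error together.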

Additional observations from a re-analysis of the deposited data

Results flagged for a closer look

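Dixon's ratio was computed over the 4 DMSO-treated mice for 46 genes. It passed the 95% critical value in 3, where chance passes about 1 in 20, or 2.3 genes. *Fosl2* was at 139.7 CPM in mouse 480 and at 99.9 to 106 CPM in the others (ratio 0.851). *Socs3* was at 36.3 CPM in mouse 483 and at 13.3 to 16.1 CPM in the others (ratio 0.876). *Elk4* was at 108 CPM in mouse 481 and at 91.3 to 92.9 CPM in the others (ratio 0.907). The group of 3 ABT-263-treated mice is too small for this ratio.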

How the results depend on the processing

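The calls of *Fos*, *Jun*, *Egr1* and *Jund* held under DESeq2, its size factors, library totals, both other filters, thinned counts and limma. Of the 10 genes, 2 to 4 were called with a mouse left out. The log2 fold changes of *Fosl2* and *Atf3* were -0.14 and -0.16 without mouse 476, and reached 0.37 and 0.73 with another mouse left out. Over all genes 4342 were called, and 1735 to 4169 with a mouse left out. With library totals 2647 were higher and 1532 lower, against 2234 and 2108. With a mouse left out, 3 to 10 other immediate early genes, 1 to 6 AP-1 superfamily genes, 1 to 3 feedback inhibitors, 1 to 7 AP-1 targets and 0 to 3 heat shock genes were called. Upstream kinases and factors numbered 4, and 3 to 6 with a mouse left out. DESeq2 called 8 AP-1 superfamily genes, and testing every gene with a count left 2 AP-1 targets. With plain counts the mean shares after DMSO and ABT-263 were 51.0% and 28.9% for *Jund*, 10.8% and 16.1% for *Jun*, 12.1% and 12.3% for *Fosl2*, and 0.507% and 0.322% for *Fosb*. All 3 profiles most like *Fos*, 2 for *Fosl1* and 2 for *Junb* recurred on the variance-stabilized values. No paired analysis was possible because the groups share no replicate number. With 3 and 4 mice, differences that were small beside the spread between mice may have been missed.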
